A study of Mus musculus with 6 samples.

Results

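Troponin is the calcium switch of striated muscle, and its 8 subunit genes were followed here in dendritic epidermal T cells (DETC) of the mouse, among 20300 genes measured. The family comprises the inhibitory subunits Tnni1, Tnni2 and Tnni3, the tropomyosin-binding subunits Tnnt1, Tnnt2 and Tnnt3, and the calcium-binding subunits Tnnc1 and Tnnc2. The family was selected on the measured values of Tnni1, because that gene differed between the genotypes. Its difference is therefore described without a test, and tests are given for the other 7 genes, which were chosen by family name. All 8 genes had 1 probe set each, and all 8 stayed in the test. DETC are the γδ T cells that seed the mouse epidermis before birth, and AHR is the ligand-activated transcription factor that they need to persist there. DETC of mice without AHR were compared with those of mice that the labels call heterozygous littermates. The discussion of the study speaks of wildtype mice for DETC of these data, and the labels were followed here.

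The mice were of the line B6.129-Ahrtm1Bra/J, female and male, and 2 weeks old. Ahr-het mice carried the disrupted Ahr allele on 1 chromosome and served as controls, and Ahr-ko mice carried it on both, in every cell of the body. Mice without the disrupted allele were not analysed here. Epidermal cells of back and belly skin were sorted for the γδ T cell receptor and the Vγ3 chain, with 90 to 98 % purity. Before the sort, the live cells of the epidermis held 10 to 15 % DETC in Ahr-het mice but 2 to 4 % in Ahr-ko mice. Each of the 3 samples per genotype held the RNA of 2 to 3 mice, and 10 ng was labelled for a Clariom S Mouse array. Values are log2 levels, so a difference of 1 is a doubling of the signal.

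In striated muscle, troponin C binds calcium, and troponin I then releases its hold on actin. Troponin T ties the complex to tropomyosin on the thin filament. The genes are split by fibre type. Tnni1 and Tnnt1 are the slow skeletal forms, Tnni2, Tnnt3 and Tnnc2 the fast skeletal forms, Tnni3 and Tnnt2 the cardiac forms, and Tnnc1 serves slow skeletal and cardiac muscle. The genes lie in pairs of a troponin I and a troponin T gene, namely Tnni1 with Tnnt2 on chromosome 1, and Tnni2 with Tnnt3 and Tnni3 with Tnnt1 on chromosome 7. Tnnc1 lies on chromosome 14 and Tnnc2 on chromosome 2.

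The sequences before the annotated starts of Tnni1 and of its partner Tnnt2 are shown because Tnni1 rose above background in Ahr-ko and its neighbour in neither genotype. They are RefSeq windows of GRCm38.p6, plus strand, at chr1:135799171-135799420 and chr1:135836084-135836314, and both lie upstream of the gene. Capitals mark CAGCTG (an E-box), CTATTTTTA (of the type bound by MEF2 factors) and GCGTG (the core of the element bound by AHR).
Tnni1: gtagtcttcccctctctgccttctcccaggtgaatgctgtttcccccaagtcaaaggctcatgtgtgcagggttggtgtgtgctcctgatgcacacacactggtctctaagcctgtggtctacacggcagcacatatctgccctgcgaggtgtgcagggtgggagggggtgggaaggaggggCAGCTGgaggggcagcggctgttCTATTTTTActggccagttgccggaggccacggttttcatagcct
Tnnt2: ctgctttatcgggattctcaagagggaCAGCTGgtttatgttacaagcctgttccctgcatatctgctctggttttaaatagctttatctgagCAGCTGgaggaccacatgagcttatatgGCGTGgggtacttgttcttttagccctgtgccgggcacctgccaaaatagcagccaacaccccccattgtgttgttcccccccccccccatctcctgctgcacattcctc
Each motif was searched on both strands of the 8 windows that the RefSeq table holds for 6 troponin genes (Tnni1, Tnni3, Tnnt1, Tnnt2, Tnnc1 and Tnnc2). CAGCTG was found in 3 of the 8 windows, those of Tnni1 and Tnnt2, and in 16.3 % of the 32851 windows of all genes. CTATTTTTA was found in 2 of the 8, the overlapping windows of Tnni1, and in 0.493 % of all windows, but its letters were chosen after the sequence had been read. GCGTG was found in 1 of the 8, that of Tnnt2, and in 32.4 % of all windows. The motifs do not overlap each other in the sequences shown. A match in these letters is a description of the sequence and not a binding site.

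To tell a measured transcript from array background, the level of each gene was set against the olfactory and vomeronasal receptor genes of the same array. The limit was the level that 95 % of these 1391 genes stayed under, 7.46 to 7.56 in Ahr-het and 7.55 to 7.63 in Ahr-ko. A gene counted as above background in a genotype if it exceeded the limit on all 3 arrays. This held for 56.4 % of all genes in Ahr-het and 55.0 % in Ahr-ko. Of the 12 markers of DETC and T cells, 10 passed in Ahr-het and 11 in Ahr-ko, with Cd3e, a chain of the T cell receptor complex, at a mean of 13.47 and 13.17. Of the DETC genes, Fgf7 was below the limit on every array (means 6.22 and 6.22), and Ccr10 passed in Ahr-ko only (means 7.63 and 8.15). The transcript of the targeted gene, Ahr, ranged from 10.62 to 10.77 in Ahr-het and from 10.00 to 10.40 in Ahr-ko (difference -0.44, SE 0.13, adjusted p = 0.177, limma). Which part of the Ahr transcript the probes cover is not given in the sources used here, so this value does not check the labels. The arrays numbered 1 of both genotypes deviated from the others in the same way, and calls that change without them are given both ways.

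Tnni1, the slow skeletal inhibitory subunit, was at background in Ahr-het and far above it in Ahr-ko. Its levels were 6.87, 6.52 and 6.33 on the 3 Ahr-het arrays and 11.94, 11.42 and 11.23 on the 3 Ahr-ko arrays. The groups lay apart, with a gap of 4.36 between the highest Ahr-het and the lowest Ahr-ko array. The group means were 6.58 +/- 0.27 and 11.53 +/- 0.37 (SD, n = 3 arrays), a difference of 4.95 (SE 0.21) that was the 2nd largest in size of all 20300 genes. None of the Ahr-het arrays exceeded its limit, and Tnni1 there lay above 75.2 to 88.1 % of the receptor genes. All 3 Ahr-ko arrays did, by 3.94 +/- 0.40 on average. As Ahr-het gives only an upper bound, the mean of Tnni1 was at least 16.1-fold higher in Ahr-ko. This bound sets the Ahr-ko mean against the mean limit of the Ahr-het arrays and leaves out the spread between arrays. Between arrays of equal number the difference was 5.07, 4.90 and 4.90, and without both arrays numbered 1 it was 4.90. In RNA of sorted populations, more cells of a type and more RNA per cell cannot be told apart.

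**Figure D1:**
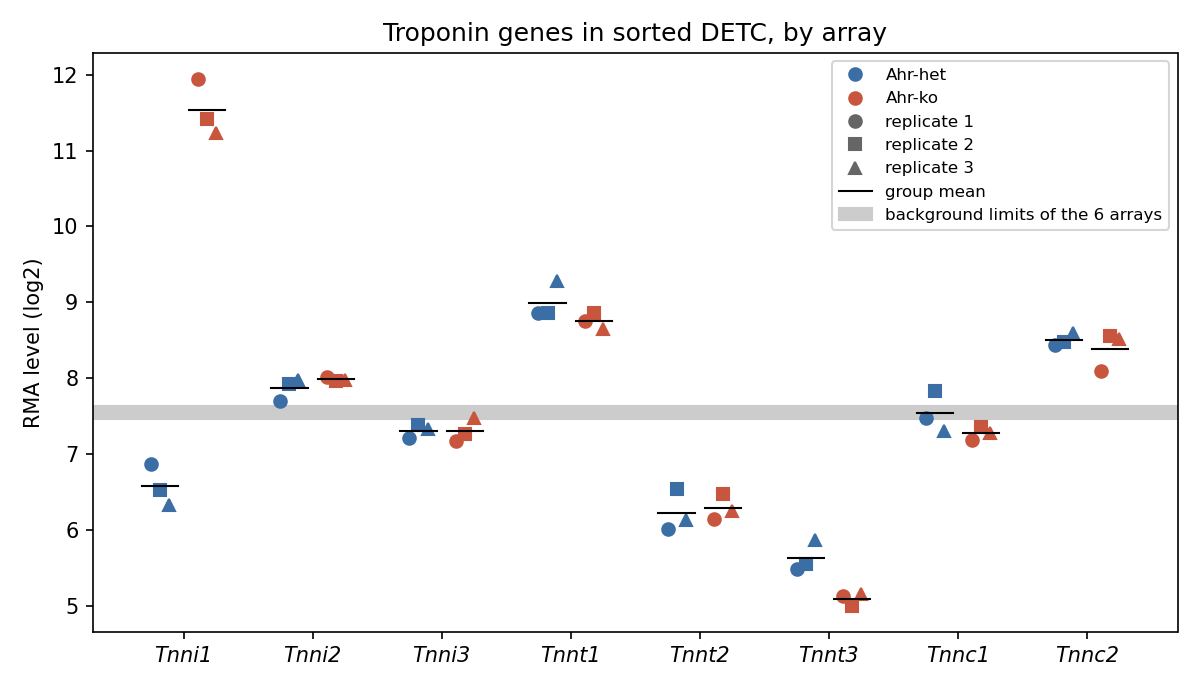
RMA levels (log2) of the 8 troponin genes on each of the 6 arrays, Ahr-het in blue and Ahr-ko in red, with the replicate number as the symbol and the group mean as a line. The grey band spans the background limits of 7.46 to 7.63, and Tnni1 alone lies below it in Ahr-het (6.33 to 6.87) and above it in Ahr-ko (11.23 to 11.94).

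Of the other inhibitory subunits, the fast form Tnni2 was above background in both genotypes. It stood at 7.70, 7.93 and 7.98 in Ahr-het and at 8.01, 7.96 and 7.97 in Ahr-ko. The levels exceeded the limits by 0.35 and 0.39 on average, and the groups overlapped. The difference was 0.11 (SE 0.11, 95 % interval -0.14 to 0.37, adjusted p = 0.765, limma). The cardiac form Tnni3 was below the limit on every array, at 7.21, 7.38 and 7.33 in Ahr-het and 7.17, 7.26 and 7.48 in Ahr-ko. Its difference was -0.0017 (SE 0.12, 95 % interval -0.27 to 0.27, adjusted p = 0.997), with no settled sign. The intervals of both genes end far below the difference of Tnni1.

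Among the tropomyosin-binding subunits, the slow skeletal Tnnt1 was above background on all 6 arrays. Its levels were 8.85, 8.85 and 9.27 in Ahr-het and 8.76, 8.86 and 8.65 in Ahr-ko. The ranges touched, and the difference of -0.24 did not pass the test (SE 0.14, 95 % interval -0.56 to 0.085, adjusted p = 0.560, limma). Tnnt1 is the slow-fibre partner of Tnni1, and its means were 8.99 +/- 0.24 in Ahr-het and 8.76 +/- 0.10 in Ahr-ko.

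The cardiac Tnnt2 lies beside Tnni1 on chromosome 1 and was below the limit on every array. It stood at 6.01, 6.53 and 6.13 in Ahr-het and at 6.14, 6.47 and 6.25 in Ahr-ko, so the groups overlapped. The difference was 0.061 (SE 0.16, 95 % interval -0.30 to 0.43, adjusted p = 0.927, limma). The fast skeletal Tnnt3 was the only member besides Tnni1 whose groups did not overlap, and here Ahr-ko was the lower group. Its levels were 5.49, 5.55 and 5.86 in Ahr-het and 5.12, 5.0004 and 5.15 in Ahr-ko, all of them below the limits. Across all genes the Ahr-ko arrays were all above the Ahr-het arrays in 9.76 % and all below in 8.91 %. The Tnnt3 difference of -0.54 (SE 0.13, 95 % interval -0.83 to -0.25) missed the threshold (adjusted p = 0.0729, limma). It passed with the replicate number as a block (adjusted p = 0.0176) and without both arrays numbered 1 (-0.63, adjusted p = 0.0438). As both groups lay under the limit, no fold is given.

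The calcium-binding subunits did not pass the test either. Tnnc1, shared by slow skeletal and cardiac muscle, stood at 7.48, 7.83 and 7.31 in Ahr-het and at 7.19, 7.36 and 7.28 in Ahr-ko. It exceeded the limit on 2 of the 3 Ahr-het arrays and on 0 of the 3 Ahr-ko arrays, while its ranges overlapped. The difference was -0.26 (SE 0.15, 95 % interval -0.60 to 0.072, adjusted p = 0.527, limma). The fast skeletal Tnnc2 was above background on all 6 arrays, at 8.43, 8.48 and 8.60 in Ahr-het and 8.09, 8.56 and 8.51 in Ahr-ko. Its difference was -0.12 (SE 0.14, 95 % interval -0.45 to 0.21, adjusted p = 0.820).

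**Figure D2:**
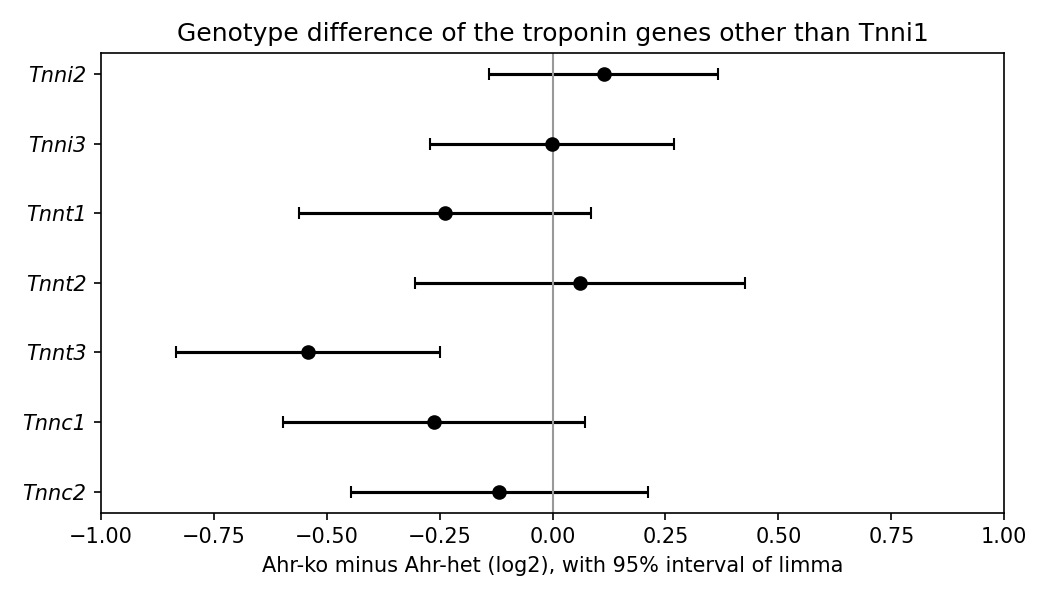
Difference between the Ahr-ko and Ahr-het means (log2) of the 7 troponin genes other than Tnni1, with the 95 % interval of limma as a bar. The intervals of 6 genes include 0 and that of Tnnt3 runs from -0.83 to -0.25, and none reaches beyond 0.43.

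Of the 7 troponin genes other than Tnni1, 0 passed the threshold of 0.05 for the adjusted p, where 3.14 % of all genes did. At an unadjusted p under 0.05 the count was 1 (13.2 % of all genes), and with the replicate number as a block it was also 1 (Tnnt3), where 7.58 % of all genes passed. The median difference of the 7 genes was -0.12, and that of all genes was 0.0038. Above background were 3 of the 8 troponin genes in Ahr-het (Tnni2, Tnnt1 and Tnnc2) and 4 of the 8 in Ahr-ko (the same genes and Tnni1). Of all genes, 56.4 % and 55.0 % were above it. The 2 counts differ only by Tnni1, the gene that chose the family. The 4 genes code for a slow inhibitory, a fast inhibitory, a slow tropomyosin-binding and a fast calcium-binding subunit.

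To see whether Tnni1 was accompanied by other muscle transcripts, 57 genes in 6 lists were examined, covering fast, slow and pan skeletal muscle, cardiac muscle, smooth muscle, and myogenic factors with satellite cell markers. Of these, 1 was higher in Ahr-ko, 0 were lower and 56 did not pass (limma). Across all genes 1.58 % were higher and 1.57 % were lower, so the count was near the share of all genes. The differences of the 57 genes ran from -0.53 to 0.73 with a median of 0.023. The same number, 17 of 57, was above background in each genotype, beside 56.4 % of all genes in Ahr-het and 55.0 % in Ahr-ko. Of the 57, 40 were above background in neither genotype and 33 were below the limit on every array. Among all 20300 genes these counts were 8566 and 7425. The mean level over the 57 genes lay between 7.18 and 7.27 for Ahr-het, and between 7.23 and 7.31 for Ahr-ko. Members of the skeletal muscle lists fell on both sides of the limit. Acta1, skeletal actin, ranged from 6.95 to 7.17 in Ahr-het and from 7.10 to 7.21 in Ahr-ko. Ckm, muscle creatine kinase, ranged from 7.32 to 7.49 and from 7.23 to 7.30, and both genes were below the limit on every array. Eno3, muscle enolase, was above it on all 6 arrays, with means of 8.20 and 8.31.

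The gene that passed was Pln, phospholamban, which restrains the calcium pump of cardiac and slow muscle. Its means were 6.53 +/- 0.091 in Ahr-het and 7.26 +/- 0.069 in Ahr-ko (difference 0.73, SE 0.10, adjusted p = 0.00642, limma), but 0 of 6 arrays exceeded the limit. Mylpf, a fast light chain, passed in the other direction only with the block (7.26 and 6.76, adjusted p = 0.0260) and was likewise below the limit on all arrays. In the fast list 3 of 10 genes were above background in each genotype, beside 56.4 % of all genes in Ahr-het and 55.0 % in Ahr-ko. Atp2a1, the calcium pump of fast fibres, had means of 8.38 +/- 0.33 and 9.04 +/- 0.24 (difference 0.66, SE 0.19, adjusted p = 0.144), and the parvalbumin gene Pvalb had means of 7.73 and 7.79. Pvalb exceeded the limits by only 0.21 on average in each genotype.

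In the slow list, to which Tnni1 belongs by function, 2 of 8 genes were above background in each genotype. These were Myl3, a slow and ventricular light chain (10.09 +/- 0.38 and 10.02 +/- 0.16), and Myh7b, a slow-type myosin heavy chain (8.87 and 8.80). Myh7 and Myl2, the main slow heavy and regulatory light chains, had means of 5.70 and 5.82, and of 4.995 and 4.85, under every limit. The pan skeletal list had 3 of 12 above background in each genotype, among them the myoglobin gene Mb (9.03 and 8.95) and the Z-disc gene Ldb3 (8.86 and 8.92). The cardiac list had 3 of 10, the actin gene Actc1 at 9.38 and 9.52, Myl4 at 7.99 and 8.17 and Nppa at 7.89 and 7.91. The smooth muscle list had 3 of 8 with Smtn at 9.74 and 9.82 and Myh11 at 8.33 and 8.35. The myogenic list had 3 of 9 with Pax3 at 9.06 and 8.999 and Pax7 at 7.80 and 7.76. Pax7 exceeded the limits by only 0.28 in Ahr-het and 0.17 in Ahr-ko on average. None of these named genes passed the test. Of all genes, 56.4 % were above background in Ahr-het and 55.0 % in Ahr-ko.

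**Figure D3:**
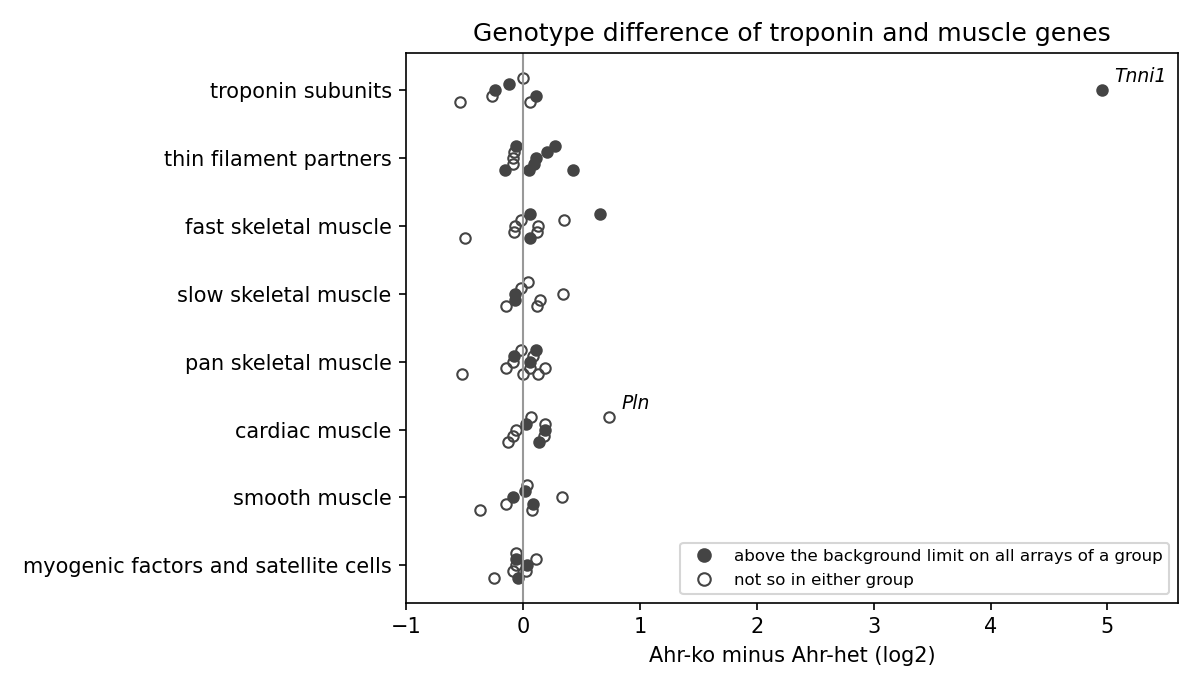
Difference between the Ahr-ko and Ahr-het means (log2) of each troponin gene, thin filament partner and muscle marker, 1 point per gene in 1 row per list. Filled points are above the background limit on all 3 arrays of a genotype. Tnni1 lies at 4.95, and all other points lie between -0.54 and 0.73.

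Troponin acts through tropomyosin and actin, of which cells outside muscle have their own forms. Of 12 listed partners 11 were tested (Actg1 was not analysed here), 8 were above background in both genotypes and 0 passed the test. Across all genes 3.14 % passed it, and 56.4 % in Ahr-het and 55.0 % in Ahr-ko were above background. The cytoskeletal actin gene Actb had means of 13.51 +/- 0.096 in Ahr-het and 13.72 +/- 0.094 in Ahr-ko (difference 0.21, adjusted p = 0.482, limma). The tropomyosin gene Tpm4 had means of 11.86 and 11.97, and Tpm3 had 11.42 and 11.69. Tpm1 had the largest difference of this list, from 9.49 +/- 0.16 to 9.92 +/- 0.12 (0.43, SE 0.12, adjusted p = 0.137).

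Markers of other cells that the sort could hold were examined beside Tnni1. The lists were drawn up with earlier results of these data known, so the counts do not test whether such markers changed more than other genes. Of 7 tested NK cell and ILC markers, 4 passed the test as higher in Ahr-ko and 0 as lower, where 1.58 % and 1.57 % of all genes did. Their mean level was 8.27 to 8.39 in Ahr-het and 9.06 to 9.34 in Ahr-ko. Eomes, a T-box factor of NK and memory T cells, differed by 3.46 (SE 0.16, adjusted p = 1.52e-05, limma). It was below the limit on all 3 Ahr-het arrays (mean 6.77) and above it on all 3 Ahr-ko arrays (mean 10.23). Ncr1, an activating NK receptor, differed by 1.59 (adjusted p = 0.0382), Klri2, a lectin-like receptor, by 0.78 (adjusted p = 0.0450) and the integrin gene Itga2 by 0.71 (adjusted p = 0.0360). Ncr1 had means of 6.55 and 8.14 and exceeded the limit on 0 of 3 Ahr-het and 2 of 3 Ahr-ko arrays. By the rule used here, Ncr1 was thus above background in neither genotype. The NK marker Klrb1c went the other way, with a difference of -0.83 that passed with the block only (adjusted p = 0.308 without and 0.00169 with it). Klrc1 (0.37) and Khdc1a (-0.085) did not pass. Of 6 αβ T cell markers 3 were higher and 1 lower, with mean levels of 8.59 to 8.66 in Ahr-het and 9.07 to 9.13 in Ahr-ko. Cd6 differed by 1.91 (adjusted p = 0.00867), Cd8a by 1.67 (adjusted p = 0.0127), Cd8b1 by 0.68 (adjusted p = 0.0345) and Themis by -0.61 (adjusted p = 0.0390). Cd8a exceeded the limit on 2 of the 3 Ahr-het arrays and on all 3 Ahr-ko arrays (means 7.43 and 9.10). Themis had means of 11.64 in Ahr-het and 11.03 in Ahr-ko. The remaining members Cd4 (-0.35) and Cd5 (-0.35) had negative differences and did not pass.

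Keratinocyte markers had mean levels of 8.86 to 9.07 in Ahr-het and 8.65 to 8.97 in Ahr-ko. Of the 12, 11 were above background in Ahr-het and 10 in Ahr-ko, and 1 passed the test, the desmosomal gene Dsp, which was lower in Ahr-ko (11.92 and 10.71, difference -1.22, SE 0.14, adjusted p = 0.00241, limma). Across all genes 3.14 % passed in either direction, and 56.4 % in Ahr-het and 55.0 % in Ahr-ko were above background. Among the 12 DETC markers Ptprc was higher (0.47, adjusted p = 0.0437), and with the block 3 were, beside 7.58 % of all genes that passed. None of 7 fibroblast and 6 endothelial markers passed. Col1a1 had means of 9.48 and 9.62, Col1a2 of 7.68 and 7.69, Cldn5 of 8.02 and 8.48 and Pecam1 of 7.46 and 7.22. Leaving out 1 array at a time ended the call of Ptprc in 6 of 6 cases, of Cd8b1, Itga2, Klri2 and Themis in 5, of Ncr1 in 4 and of Cd6 and Cd8a in 2, and of Eomes, Dsp and Pln in 0. Without both arrays numbered 1, Itga2 (adjusted p = 0.0545) and Cd8b1 (adjusted p = 0.0590) did not pass. With p-values adjusted over all probe sets, Ptprc, Ncr1, Klri2, Itga2, Cd8b1 and Themis did not pass (adjusted p = 0.0706 to 0.0898). The part of these cells in the Tnni1 difference was not tested.

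The genes beside the troponin genes were read to see how far along the chromosome the Tnni1 difference reached. In the RefSeq gene order, the 3 nearest measured genes on each side of each troponin gene gave 33 genes outside the family. Of these 1 was higher, 1 was lower and 31 did not pass, beside 3.14 % of all genes that passed in either direction, and the median difference was 0.023 (limma). Directly beside Tnni1, Phlda3, a repressor of AKT signalling, had means of 7.32 and 7.10 (difference -0.22, adjusted p = 0.531). On the other side Lad1, the gene of the anchoring filament protein ladinin, had means of 8.42 and 8.46 (difference 0.049, adjusted p = 0.918). Lad1 lies between Tnni1 and Tnnt2. Farther out, Csrp1, a LIM domain gene, differed by 0.43 (adjusted p = 0.113) and the plakophilin gene Pkp1 by -0.16 (adjusted p = 0.650).

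The neighbour that was higher was Nav1, a microtubule-associated protein gene and the third measured gene before Tnni1. Its means were 9.94 +/- 0.37 in Ahr-het and 11.58 +/- 0.17 in Ahr-ko (difference 1.64, SE 0.19, adjusted p = 0.00213, limma), with ranges of 9.52 to 10.18 and 11.42 to 11.75. The neighbour that was lower was Lsp1, the gene of a leukocyte actin-binding protein, next to Tnni2. It fell from 12.22 +/- 0.15 to 11.03 +/- 0.23 (difference -1.20, SE 0.14, adjusted p = 0.00263). Between Lsp1 and Tnnt3 lies Prr33, with means of 7.89 and 7.64 (adjusted p = 0.571). With the block 3 of the 33 neighbours passed, beside 7.58 % of all genes, the additional gene being Nisch beside Tnnc1 (10.35 and 9.83, adjusted p = 0.0190).

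**Figure D4:**
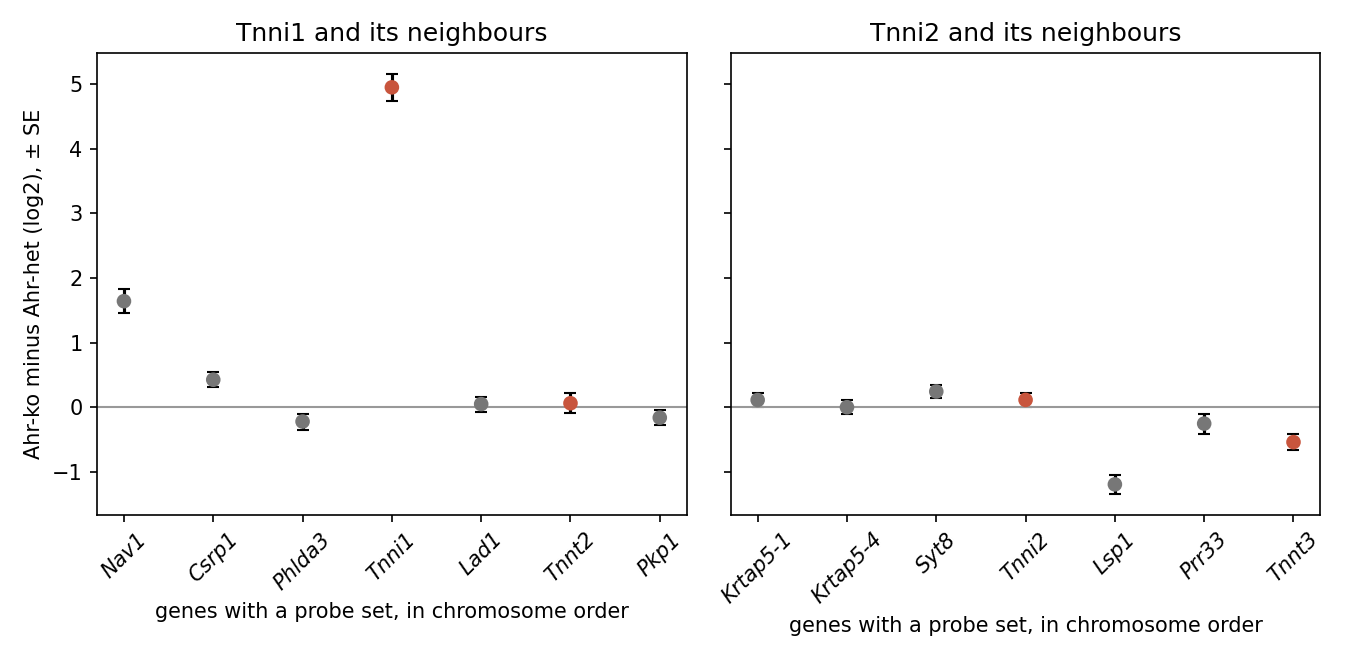
Difference between the Ahr-ko and Ahr-het means (log2, bars show the SE) of Tnni1, Tnni2 and their nearest measured genes in chromosome order, troponin genes in red and other genes in grey. Tnni1 (4.95) stands between Phlda3 (-0.22) and Lad1 (0.049), and Lsp1 (-1.20) stands beside Tnni2 (0.11).

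Genes whose levels moved over the 6 arrays most like those of Tnni1 were named by the root mean square difference of the log2 values after each gene's mean was subtracted. Itgax, the integrin CD11c, was the nearest (0.23), with 7.03 to 7.23 in Ahr-het and 11.71 to 12.05 in Ahr-ko. Samd3 followed (0.33), with 6.68 to 7.004 and 11.09 to 11.45. Nmrk1, a nicotinamide riboside kinase, was next (0.44), with 5.22 to 5.38 and 9.56 to 10.22. The chemokine receptor gene Ccr2 was close to it (0.45), with 6.33 to 6.69 and 10.45 to 11.03. The other 7 troponin genes lay at 2.44 to 2.77, and Tnni2 was the nearest of them at rank 5661 of all genes. This likeness was set by the genotype difference that chose Tnni1 and carries no test.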

How the data were processed

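The data are 6 Clariom S Mouse arrays of sorted DETC, 3 Ahr-het and 3 Ahr-ko, grouped as labelled. The deposited log2 values were made by the authors with RMA. The array's genome build is not given in the sources used here. A gene table deposited by the authors was used for gene IDs, and its fold changes and p-values were not used. Of 29129 probe sets 20435 carried a gene ID. The brightest stood for each of 86 genes with several, which left 20300 genes, and 20199 IDs were found in the RefSeq table of GRCm38.p6, used for names and gene order.

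The test was that of limma 3.58.1 (lmFit, then eBayes; R 4.3.3), with Benjamini-Hochberg adjustment over all genes and a threshold of 0.05. The submitters' processing notes name limma 3.38.3. The fit was tested on simulated data. The labels do not say whether the pools were independent litters, so p-values measure the spread between these arrays, whose number limits the precision. Arrays of equal number deviated together from their group means (correlations across genes, which are not independent, of 0.572, 0.369 and 0.207). Unequal numbers 2 and 3 also correlated (0.236 and 0.336). The fit of the report was unpaired, and the replicate number entered as a block in an alternative fit only. The blocked fit is given where it changes a result.

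Named are the 8 troponin genes, from each list the members past the threshold (at most 4) or otherwise the 2 with the highest mean level, the 3 measured neighbours on each side, the 5 genes most like Tnni1, and Ahr. Of these 1 gene is not reported here, and neighbours without a call are mostly summarised. Acta1, Ckm, Eno3, Mylpf, Myh7, Myl2, Actc1, Myl4, Nppa, Tpm1, Tpm3, Cd3e, Fgf7, Ccr10, Klrb1c, Klrc1, Khdc1a, Cd4 and Cd5 were named after their values were seen. Members and lists were chosen with earlier results of these data known. Alternatives were the block, another quantile normalization, median centring, a background filter, all probe sets, other background percentiles and leaving out each array. Leaving out both arrays numbered 1 was added after seeing the data.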

Additional observations from a re-analysis of the deposited data

How the results depend on the processing

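The Tnni1 difference stayed between 4.75 and 5.10 when each array was left out in turn and moved by less than the spread between arrays under all alternatives. Of the other 7 troponin genes, 1 (Tnnt3) passed with the replicate block and 1 (Tnnt3) without both arrays numbered 1, an alternative chosen after seeing the data, and 0 passed in each of the 6 fits without 1 array, where the Tnnt3 difference ran from -0.61 to -0.43. The block changed no other call of a troponin gene. Among all genes, 638 passed in the fit of the report, 1538 with the block, 1147 without both arrays numbered 1, and 342 to 644 without 1 array (355 without Ahr-het 2, 371 without Ahr-het 3, 342 without Ahr-ko 3). The cause was not tested. The sign of Tnni3 turned with another quantile normalization (0.00017), with median centring (0.0071) and without both arrays numbered 1 (0.013), and ran from -0.089 to 0.063 without 1 array. Without 1 array, Tnnt2 ran from -0.045 to 0.22, Tnnc2 from -0.20 to 0.030, Tnni2 from 0.030 to 0.17, Tnnt1 from -0.31 to -0.099 and Tnnc1 from -0.38 to -0.12. Tnni2 was 0.016 and Tnnc2 -0.0048 without both arrays numbered 1. With the limit at the 90th percentile of the receptor genes, 5 of 8 troponin genes were above background in Ahr-het and 6 of 8 in Ahr-ko. With the 99th percentile 2 of 8 were in each, namely Tnnt1 and Tnnc2 in Ahr-het and Tnni1 and Tnnt1 in Ahr-ko. Tnni2 passed that limit in neither genotype, and Tnnc2 failed it in Ahr-ko (8.09 against 8.28 on array 1). Tnni3, Tnnt2 and Tnnt3 were below the limit on every array, so a change in these transcripts would be understated or not seen.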
